A study of Patiria miniata with 16 samples.

Results

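Sulfotransferase RNA was followed in embryos of Patiria miniata, the bat sea star, exposed to BAPN (β-aminopropionitrile), a compound that blocks lysyl oxidases, the enzymes behind collagen and elastin cross-links in other animals. The family was taken as every gene whose product name contains the word sulfotransferase, which gave 148 of the 27818 genes in the table. The rule reads names and no measured value, but the family was taken up with results of these libraries already known, so that its counts are descriptions of these embryos. By the words of their names, 76 members fell in the class of Golgi enzymes that sulfate sugar chains, 70 in the class of cytosolic enzymes and 2 in the class of protein-tyrosine sulfotransferases. All 148 names end in "-like": they were given by similarity, and the activities named here are those of the vertebrate enzymes.

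Whole wild-type embryos were collected as pools at days 2, 3 and 4, and polyA RNA from each pool was sequenced as a stranded paired-end library. Each of the 8 groups had 2 libraries, and in every treated group 1 library had received 1.2 mM and the other 0.8 mM BAPN. BAPN was given from the hatched blastula stage to day 2, from mid gastrula to day 3, from the hatched blastula stage to day 4 or from mid gastrula to day 4. In a recovery group it was given from the hatched blastula stage to day 2 and then removed, and these embryos were collected at day 4. Untreated embryos of days 2, 3 and 4 were the controls, and the 2 day 4 controls serve both day 4 treatments and the recovery group. The labels name a control for each treated library of the blastula-to-day-2, gastrula-to-day-3 and blastula-to-day-4 groups, but not what such a pair shares. Since no label ties the libraries of a group to separate cultures, p-values cover no more than the spread between these pools, which may be technical and for treated groups includes the step in dose.

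Sulfotransferases move a sulfate group from the activated donor PAPS (3'-phosphoadenosine 5'-phosphosulfate) to an acceptor. In the Golgi, carbohydrate sulfotransferases sulfate chondroitin, dermatan and heparan sulfate chains on proteoglycans of the cell surface and matrix, and the positions they choose set which growth factors and matrix proteins the chains can bind; sulfated matrix is a prominent feature of the blastocoel of echinoderm embryos. In the cytosol, the SULT enzymes conjugate small molecules such as phenols, steroids and amines, and in vertebrates they serve detoxification and hormone inactivation. Protein-tyrosine sulfotransferases act in the Golgi on tyrosines of secreted and membrane proteins.

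Libraries held between 9945801 and 14383817 counts. Levels are given as CPM (counts scaled to the TMM-adjusted library size), and each pair of values is 1 library at each dose in treated groups, or the 2 controls. Of the 148 members, 105 passed the filter on low counts and were tested, 61 Golgi, 42 cytosolic and both protein-tyrosine genes. The remaining 43 members, 28 cytosolic and 15 Golgi, had at most 55 reads over the 16 libraries, and 12 of them had none. Of the 105 tested members, 19 reached the filter's level of 0.838 CPM in fewer than 2 of the 8 libraries kept in BAPN, and 8 reached it in fewer than 2 of the 8 control and recovery libraries. Members of the first kind could not pass on the libraries kept in BAPN alone and needed a control or recovery library at that level. The counts of falls below thus hold some genes that were tested only because of control or recovery libraries. Counts among the better-measured genes are given beside them.

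The clearest result of the family was that most of its called members fell in BAPN while 1 cytosolic gene, LOC119730908, rose steeply to become the most abundant of its class per kilobase in all 4 BAPN groups. Over the mean of the 3 windows that have controls of their own day (blastula to day 2, gastrula to day 3, blastula to day 4), 14 of 105 members rose and 55 fell at an adjusted p under 0.05 in edgeR's quasi-likelihood test, with p-values adjusted over all 17519 genes tested. Among all genes tested, 28.1% rose and 30.1% fell in that comparison. The members' median log2 change was -0.77, against -0.07 over all genes, and it was -0.72 when groups without a read were held at a floor of 3 counts. Of the 42 cytosolic members 3 rose and 27 fell, and of the 61 Golgi members 9 rose and 28 fell; both protein-tyrosine genes rose.

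Among genes with a mean of at least 2 CPM, a level chosen after the data were seen, 11 of 74 members rose and 43 fell, against 33.0% of all such genes rising and 33.2% falling. In that range 18 of 22 cytosolic members and 25 of 50 Golgi members fell. For 18 of the 27 cytosolic falls and 24 of the 28 Golgi falls, all 6 treated libraries lay below both controls of their day. These genes were called lower from the same libraries, so these counts describe the calls and lend them no further support. The share over all genes called lower is not given here. Scaling by total counts alone moved the median of all genes to -0.29; under it 10 members rose and 60 fell, and all genes split into 3830 rises and 6656 falls, against 4926 and 5281 with TMM.

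**Figure D1:**
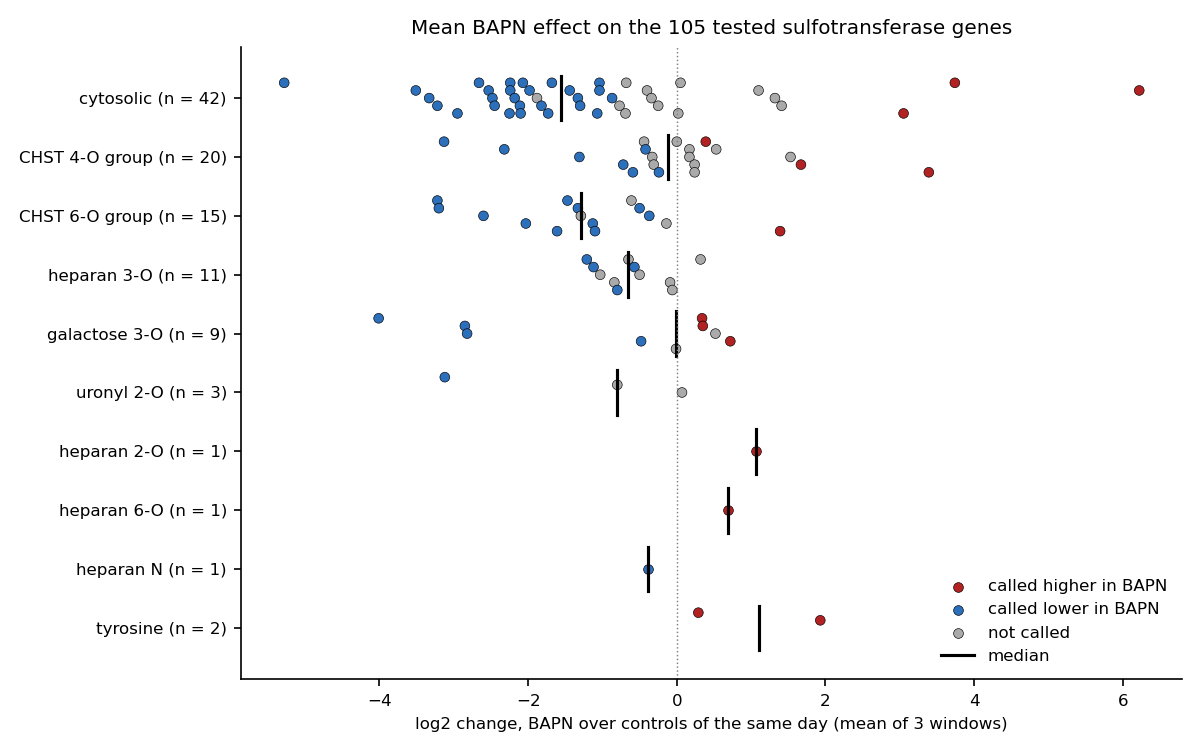
Each point is 1 tested member, placed by its mean log2 change in BAPN over the 3 windows with controls of their own day, with groups without a read held at the floor of 3 counts; red points rose, blue points fell, grey points were not called, and the bar is the median of the subclass. Cytosolic members and the chondroitin 6-O enzymes lie mostly below 0, the 4-O and galactose 3-O enzymes lie on both sides, and LOC119730908 stands alone at 6.22.

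Cell-type markers were read from the same comparison, in which 28.1% of all genes rose and 30.1% fell. The libraries are of whole embryos, in which fewer cells of a type and less RNA per cell cannot be told apart. Of 25 genes of motile cilia 23 fell and 1 rose, and their summed level was 1790 to 3760 CPM in BAPN, 5040 to 5140 CPM in recovery and 3960 to 5950 CPM in controls. Of 6 muscle genes 5 fell, with sums of 626 to 1000 CPM in BAPN, 2260 to 2310 CPM in recovery and 1720 to 3300 CPM in controls. Of 24 tested neuronal genes 13 fell and 2 rose, at 633 to 1020 CPM in BAPN, 1240 CPM in both recovery libraries and 1110 to 1450 CPM in controls. Of 28 tested genes in the mesenchyme and immune list 16 rose and 5 fell, at 3370 to 5390 CPM in BAPN, 1490 to 1600 CPM in recovery and 1340 to 2970 CPM in controls, while 10 of the 62 genes in that list had no read. Of 26 tested gut genes 5 rose and 8 fell, at 64.6 to 163 CPM in BAPN, 57.6 to 76.5 CPM in recovery and 48.4 to 468 CPM in controls, and 1 listed gene had no read. The gut sums differed in direction between days. After BAPN from blastula they were 110 and 134 CPM at day 2, against 48.7 and 48.4 CPM in controls. At day 4 they were 163 and 111 CPM with BAPN from blastula and 76.5 and 57.6 CPM in recovery, against 367 and 468 CPM in controls. The control ranges above span days 2 to 4, whereas recovery was collected at day 4 only. Day 4 controls alone had 5950 and 5700 CPM for cilia and 3040 and 3300 CPM for muscle. They had 1450 and 1400 CPM for neurons and 2970 and 2830 CPM for the mesenchyme and immune list. Recovery lay below both day 4 controls in each of these lists. The part of these cell types in the sulfotransferase changes was not tested.

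Among the cytosolic enzymes, LOC119730908 (sulfotransferase 1A1-like; in mammals SULT1A1 conjugates phenols and phenolic drugs) lies on scaffold NW_024037061.1 at 1980699 to 1986576 on the plus strand of the Pmin_3.0 assembly. Its level was 116 and 151 CPM after BAPN from blastula to day 2, against 2.62 and 6.12 CPM in day 2 controls. After BAPN from gastrula to day 3 it was 118 and 106 CPM, against 1.77 and 1.21 CPM in day 3 controls. At day 4 it was 392 and 365 CPM with BAPN from blastula and 149 and 141 CPM with BAPN from gastrula, against 1.88 and 2.31 CPM in the controls. No treated library came near a control in any window, and the libraries at 1.2 and 0.8 mM lay close together. The mean log2 change was 6.22 ± 0.15 (SE; edgeR adjusted p = 3.7e-18), with 4.95 ± 0.24 in the blastula-to-day-2 window, 6.21 ± 0.27 in the gastrula-to-day-3 window, 7.49 ± 0.27 in the blastula-to-day-4 window and 6.1 ± 0.27 in the gastrula-to-day-4 window. The effect of the blastula start was larger at day 4 than at day 2, by 2.54 ± 0.37 on the log2 scale (adjusted p = 3.1e-05, test of the difference). In recovered embryos the level was 3.98 and 3.6 CPM, above both day 4 controls but not past the test (0.85 ± 0.32, adjusted p = 0.081), and it fell by 6.64 ± 0.25 on the log2 scale against embryos kept in BAPN to day 4 (adjusted p = 2.3e-14).

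The next gene on that scaffold is also named sulfotransferase 1A1-like and moved the other way. LOC119730618 lies at 1990661 to 2031693 on the same strand, with 4084 bases and no other gene between them. Its level was 35.8 and 30.8 CPM after BAPN from blastula to day 2, against 149 and 147 CPM in day 2 controls, and 61.9 and 60.5 CPM after BAPN from gastrula to day 3, against 206 and 207 CPM in day 3 controls. At day 4 it was 39.9 and 51.8 CPM with BAPN from blastula and 44.2 and 41.0 CPM with BAPN from gastrula, against 268 and 299 CPM in the controls. Every treated library lay below every control, and the mean log2 change was -2.18 ± 0.08 (adjusted p = 6.7e-16). Recovered embryos had 171 and 171 CPM, between those kept in BAPN and the controls: -0.73 ± 0.13 against the controls (adjusted p = 0.00031) and 1.9 ± 0.14 against embryos kept in BAPN. How reads shared by near copies were counted is not given in the sources used here, so a part of the level of either gene could belong to a close relative.

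Per kilobase of gene model, the order of the cytosolic genes was led by LOC119730618 in all 3 control groups, with 75.7, 106 and 145 CPM per kilobase at days 2, 3 and 4, and in recovered embryos with 87.5. In all 4 BAPN groups it was led by LOC119730908, with 82.9 in the blastula-to-day-2 group, 69.3 in the gastrula-to-day-3 group, 234 in the blastula-to-day-4 group and 89.7 in the gastrula-to-day-4 group, where LOC119730618 came next with 17.0, 31.3, 23.4 and 21.8. In day 4 controls the median cytosolic member had 0.336 CPM per kilobase and 45 of the 70 lay under 1. Levels in this class thus spanned a wide range, with few genes carrying most of the reads.

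**Figure D2:**
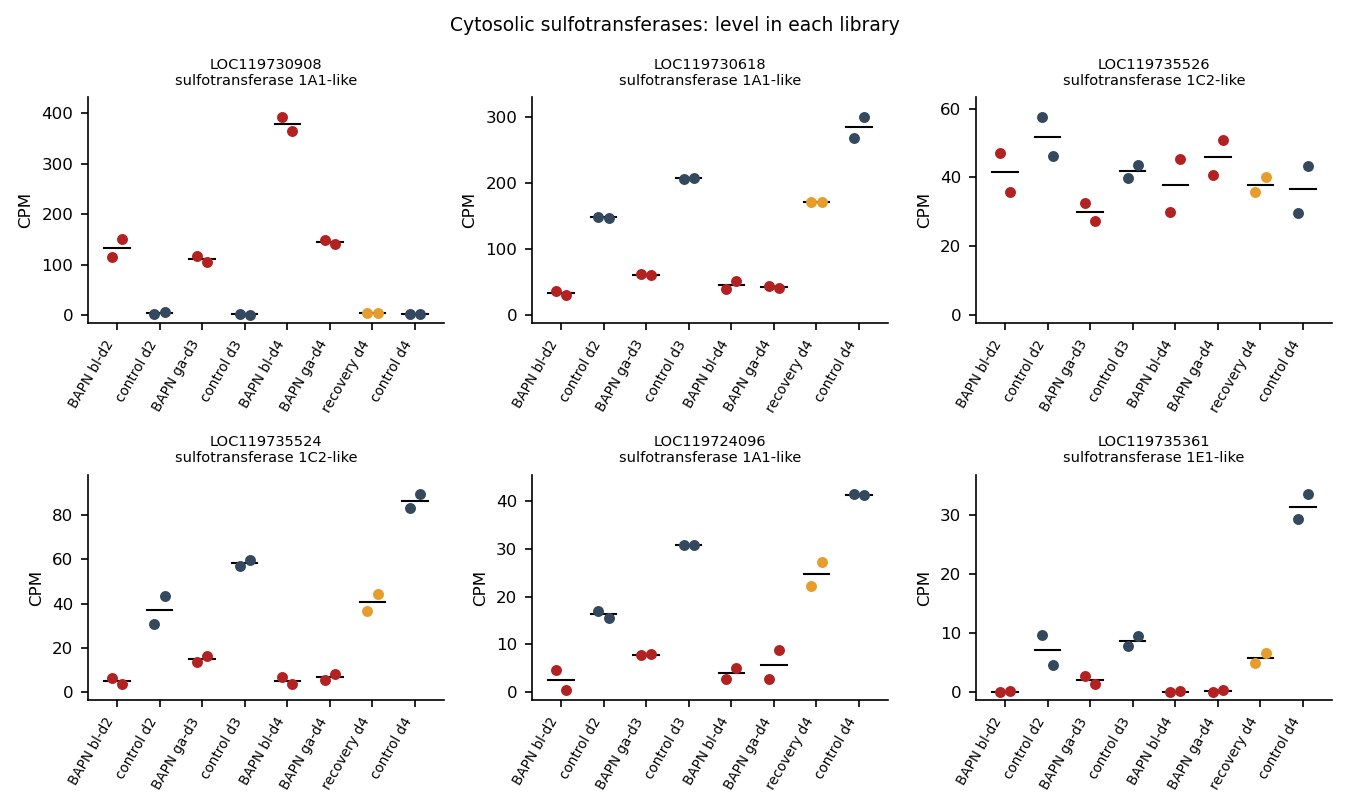
Levels of 6 cytosolic sulfotransferases in CPM on a linear axis, 1 point per library, with BAPN groups in red, recovery in orange and controls dark. The letters bl mark BAPN from hatched blastula, ga BAPN from gastrula, and d the day. LOC119730908 is high only in the BAPN groups, LOC119730618, LOC119735524, LOC119724096 and LOC119735361 are low in them, and LOC119735526 differs little.

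Summed over the 70 cytosolic genes, the reads show both movements. The sum was 303 and 326 CPM after BAPN from blastula to day 2, against 425 and 470 CPM in controls, and 345 and 320 CPM after BAPN from gastrula to day 3, against 530 and 556 CPM in controls. At day 4 it was 554 and 579 CPM with BAPN from blastula, 367 and 358 CPM with BAPN from gastrula and 453 and 489 CPM in recovery, against 684 and 744 CPM in controls. The treated sums lay below the controls of their day in every window. LOC119730908 took 33.1 to 70.7% of the class's reads in the 8 libraries kept in BAPN, 0.878 and 0.735% in recovery and 0.217 to 1.3% in controls. Without it, the class held 162 and 213 CPM with BAPN from blastula to day 4, against 682 and 741 CPM in day 4 controls. The 68 cytosolic members other than this pair of neighbours summed to 122 and 161 CPM in that treatment, against 414 and 442 CPM in the controls, so the fall of the class did not rest on LOC119730618 alone.

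**Figure D3:**
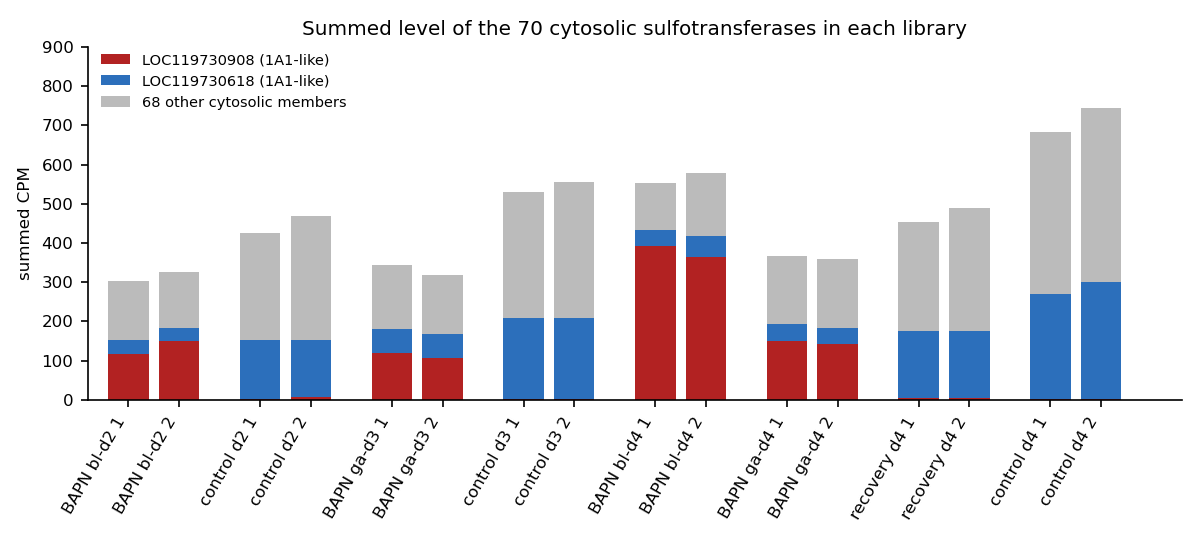
Stacked bars give the summed CPM of the 70 cytosolic sulfotransferases in each of the 16 libraries, split into LOC119730908, LOC119730618 and the 68 other members. In the libraries kept in BAPN the 68 others and LOC119730618 are smaller than in controls of the same day and LOC119730908 fills 33.1 to 70.7% of the bar; in controls its share is at most 1.3%.

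Other cytosolic genes fell strongly. LOC119735361 (sulfotransferase 1E1-like, after the estrogen sulfotransferase of mammals) had 0 and 0.282 CPM with BAPN from blastula to day 4 and 0 and 0.416 CPM with BAPN from gastrula to day 4, against 29.2 and 33.4 CPM in day 4 controls. In the blastula-to-day-2 window it had 0 and 0.202 CPM, against 9.7 and 4.61 CPM, and in the gastrula-to-day-3 window 2.72 and 1.34 CPM, against 7.79 and 9.53 CPM. It was near the floor of detection in most treated libraries, with a mean log2 change of -5.28 ± 0.45 (adjusted p = 1.2e-09). Recovered embryos had 5.03 and 6.72 CPM, still below both day 4 controls (-2.41 ± 0.54, adjusted p = 0.003).

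LOC119735524 (sulfotransferase 1C2-like) had 6.3 and 3.64 CPM, against 30.8 and 43.5 CPM, in the blastula-to-day-2 window and 13.6 and 16.4 CPM, against 56.9 and 59.6 CPM, in the gastrula-to-day-3 window. In the day 4 libraries it had 6.76 and 3.86 CPM with BAPN from blastula, 5.53 and 8.08 CPM with BAPN from gastrula and 36.6 and 44.5 CPM in recovery, against 83.2 and 89.1 CPM in controls. It was low in every treated library and intermediate in recovery: the mean log2 change was -2.95 ± 0.16 (adjusted p = 5.2e-13) and that of recovery against controls -1.09 ± 0.24 (adjusted p = 0.0028).

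LOC119724096 (sulfotransferase 1A1-like) had 4.6 and 0.405 CPM, against 17.0 and 15.6 CPM, in the blastula-to-day-2 window and 7.76 and 8.03 CPM, against 30.7 and 30.7 CPM, in the gastrula-to-day-3 window. On day 4 the level was 2.82 and 5.17 CPM with BAPN from blastula, 2.72 and 8.83 CPM with BAPN from gastrula and 22.2 and 27.2 CPM in recovery, against 41.3 and 41.2 CPM in controls. Its mean log2 change was -2.66 ± 0.35 (adjusted p = 1.6e-05), and its treated libraries differed more from each other than those of the genes above. LOC119722598 (sulfotransferase 1C4-like) was likewise lower in all 4 windows, for example with 7.47 and 6.77 CPM after BAPN from blastula to day 4, against 20.0 and 23.5 CPM in controls.

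Some cytosolic falls rested on few reads or uneven controls. LOC119735187 (sulfotransferase 1C2-like) had 1.21 and 0 CPM after BAPN from blastula to day 4, against 6.88 and 9.43 CPM in controls, and a mean log2 change of -2.48 ± 0.6 (adjusted p = 0.0014). LOC119721944 (sulfotransferase family cytosolic 1B member 1-like, after a thyroid hormone-conjugating enzyme of mammals) had a mean log2 change of -3.22 ± 0.92 (adjusted p = 0.011) and was called in no single window. Its day 2 controls had 2.36 and 18.3 CPM and its day 3 controls 2.13 and 18.1 CPM. The treated libraries held 0.426 and 0.607 CPM and 0.578 and 0.167 CPM. In CPM, though not as a ratio at day 3, the controls of each pair differed more from each other than the lower control did from the treated libraries.

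A minority of cytosolic genes did not fall. LOC119735526 (sulfotransferase 1C2-like) had 30.1 and 45.5 CPM after BAPN from blastula to day 4, against 29.7 and 43.4 CPM in controls, and a mean log2 change of -0.25 ± 0.13 (adjusted p = 0.1). LOC119721390 (sulfotransferase 1C2-like) had 16.6 and 31.1 CPM in that treatment, against 23.9 and 20.1 CPM in controls. Beside LOC119730908, the genes that rose were LOC119735297 (sulfotransferase 1 family member D1-like) and LOC119736531 (1B member 1-like), both at low levels. LOC119735297 had 2.47 and 6.28 CPM after BAPN from blastula to day 2, against 0.253 and 0 CPM in controls, and 0.908 and 0.752 CPM after BAPN from blastula to day 4, against 0.819 and 0.429 CPM; its mean log2 change was 3.05 ± 0.66 (adjusted p = 0.00043). LOC119736531 had 2.9 and 2.43 CPM after BAPN from blastula to day 2, against no read in controls, which makes it at least 19.9-fold higher, and at least 9.89-fold higher after BAPN from blastula to day 4 (adjusted p = 0.00027 for the mean effect, on 104 reads in all libraries).

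Many cytosolic genes lie in runs of near neighbours, and in the longest runs the called members fell, with 1 exception. Counting members with at most 2 other genes between them, 87 of the 148 members, 55 of them cytosolic, lie in 26 runs. The longest runs hold 11 members each on scaffold NW_024037068.1. In the one at 13180685 to 13349613, 8 members were tested; 5 fell in the mean effect (LOC119735524, LOC119735523, LOC119735187, LOC119736095 and LOC119736096), none rose, and LOC119735526, LOC119735525 and LOC119735987 were not called. In the one at 24281785 to 24423471, 8 were tested, 7 fell and 1, LOC119735297, rose. Among all genes, 28.1% rose and 30.1% fell. Several of these falls were in genes of low level with a BAPN group without a read. They were LOC119735523, LOC119736095 and LOC119736096 in the first run and LOC119735632, LOC119735370 and LOC119736264 in the second. Whether the runs differ from other genes was not tested. Another run, of 9 members on scaffold NW_024037071.1 at 9713256 to 9873925, was almost silent in these embryos: 1 member had enough reads to be tested, and it was not called. Within runs, neighbours are also the members most likely to share reads.

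In the Golgi class, most of the enzymes named after those that sulfate carbon 6 of the sugar fell. Of 15 tested members named after CHST1, CHST3 or CHST15, 1 rose and 11 fell in the mean effect, with a median log2 change of -1.34. These are 6.67% and 73.3% of them, against 28.1% and 30.1% of all genes. Their summed level was 203 and 196 CPM after BAPN from blastula to day 2, against 370 and 322 CPM in controls, and 164 and 160 CPM after BAPN from gastrula to day 3, against 292 and 278 CPM. At day 4 the sums were 153 and 143 CPM with BAPN from blastula, 158 and 157 CPM with BAPN from gastrula and 250 and 278 CPM in recovery, against 246 and 251 CPM in controls. The sums of treated and control libraries did not overlap in any window. In recovery, 1 library lay between the day 4 controls and the other above both.

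A deep fall among them was that of LOC119725863 (carbohydrate sulfotransferase 15-like; in mammals CHST15 adds a second sulfate to chondroitin 4-sulfate), at 13921182 to 13928937 on the plus strand of scaffold NW_024037057.1. It had 20.3 and 19.8 CPM after BAPN from blastula to day 2, against 65.7 and 56.7 CPM in controls, and 10.7 and 9.87 CPM after BAPN from gastrula to day 3, against 46.3 and 42.4 CPM. Its day 4 levels were 0.504 and 0.752 CPM with BAPN from blastula, 4.9 and 5.83 CPM with BAPN from gastrula and 38.0 and 44.5 CPM in recovery, against 38.5 and 40.0 CPM in controls. The gene was nearly lost after the longest exposure and close to the control level in embryos from which BAPN had been removed. Its mean log2 change was -3.22 ± 0.13 (adjusted p = 7.2e-15), reaching -5.93 ± 0.29 in the blastula-to-day-4 window. The effect at day 4 was lower than that at day 2 by -4.32 ± 0.36 on the log2 scale (adjusted p = 2.1e-08). Recovery differed from controls by 0.07 ± 0.18 (adjusted p = 0.88) and from embryos kept in BAPN by 6.0 ± 0.29 (adjusted p = 2.6e-13). Its neighbour LOC119725862, also 15-like, had 0.17 and 0.304 CPM after BAPN from blastula to day 2, against 6.92 and 4.33 CPM in controls, and a mean log2 change of -2.6 ± 0.54 (adjusted p = 0.0003).

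LOC119731099 (carbohydrate sulfotransferase 3-like, after chondroitin 6-O-sulfotransferase) had 6.3 and 4.05 CPM, against 33.9 and 30.6 CPM, in the blastula-to-day-2 window and 4.13 and 1.76 CPM, against 15.3 and 16.9 CPM, in the gastrula-to-day-3 window. By day 4 it had 1.01 and 0.658 CPM with BAPN from blastula, 3.08 and 0 CPM with BAPN from gastrula and 10.9 and 14.6 CPM in recovery, against 19.8 and 18.8 CPM in controls. All treated libraries lay below all controls of their day (mean log2 change -3.2 ± 0.43, adjusted p = 1.7e-05). LOC119728764 (3-like, -1.61 ± 0.15) and LOC119729598 (15-like, -1.47 ± 0.15) were also lower in all 4 windows, and neither was called in recovery against controls, LOC119728764 with 33.3 and 34.2 CPM, against 27.4 and 34.9 CPM, and LOC119729598 with 22.4 and 21.2 CPM, against 24.0 and 24.3 CPM. Smaller falls were seen for LOC119732638 (-1.1 ± 0.26) and LOC119745621 (3-like, -0.37 ± 0.09, adjusted p = 0.0014), and LOC119739557 (1-like, after keratan sulfate 6-O-sulfotransferase) was not called (-0.14 ± 0.12, adjusted p = 0.32).

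The exception was LOC119723503 (carbohydrate sulfotransferase 3-like), which rose in all 4 windows. It had 19.4 and 26.6 CPM after BAPN from blastula to day 2, against 9.37 and 10.1 CPM in controls, and 25.8 and 27.2 CPM after BAPN from gastrula to day 3, against 10.5 and 9.46 CPM. In the day 4 libraries it had 32.4 and 22.9 CPM with BAPN from blastula, 33.2 and 34.1 CPM with BAPN from gastrula and 12.6 and 9.62 CPM in recovery, against 11.4 and 7.89 CPM in controls. The BAPN and control levels did not overlap, and the mean log2 change was 1.39 ± 0.15 (adjusted p = 5.1e-08). Products of one name thus moved in opposite directions, LOC119723503 up and LOC119731099 and LOC119728764 down.

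**Figure D4:**
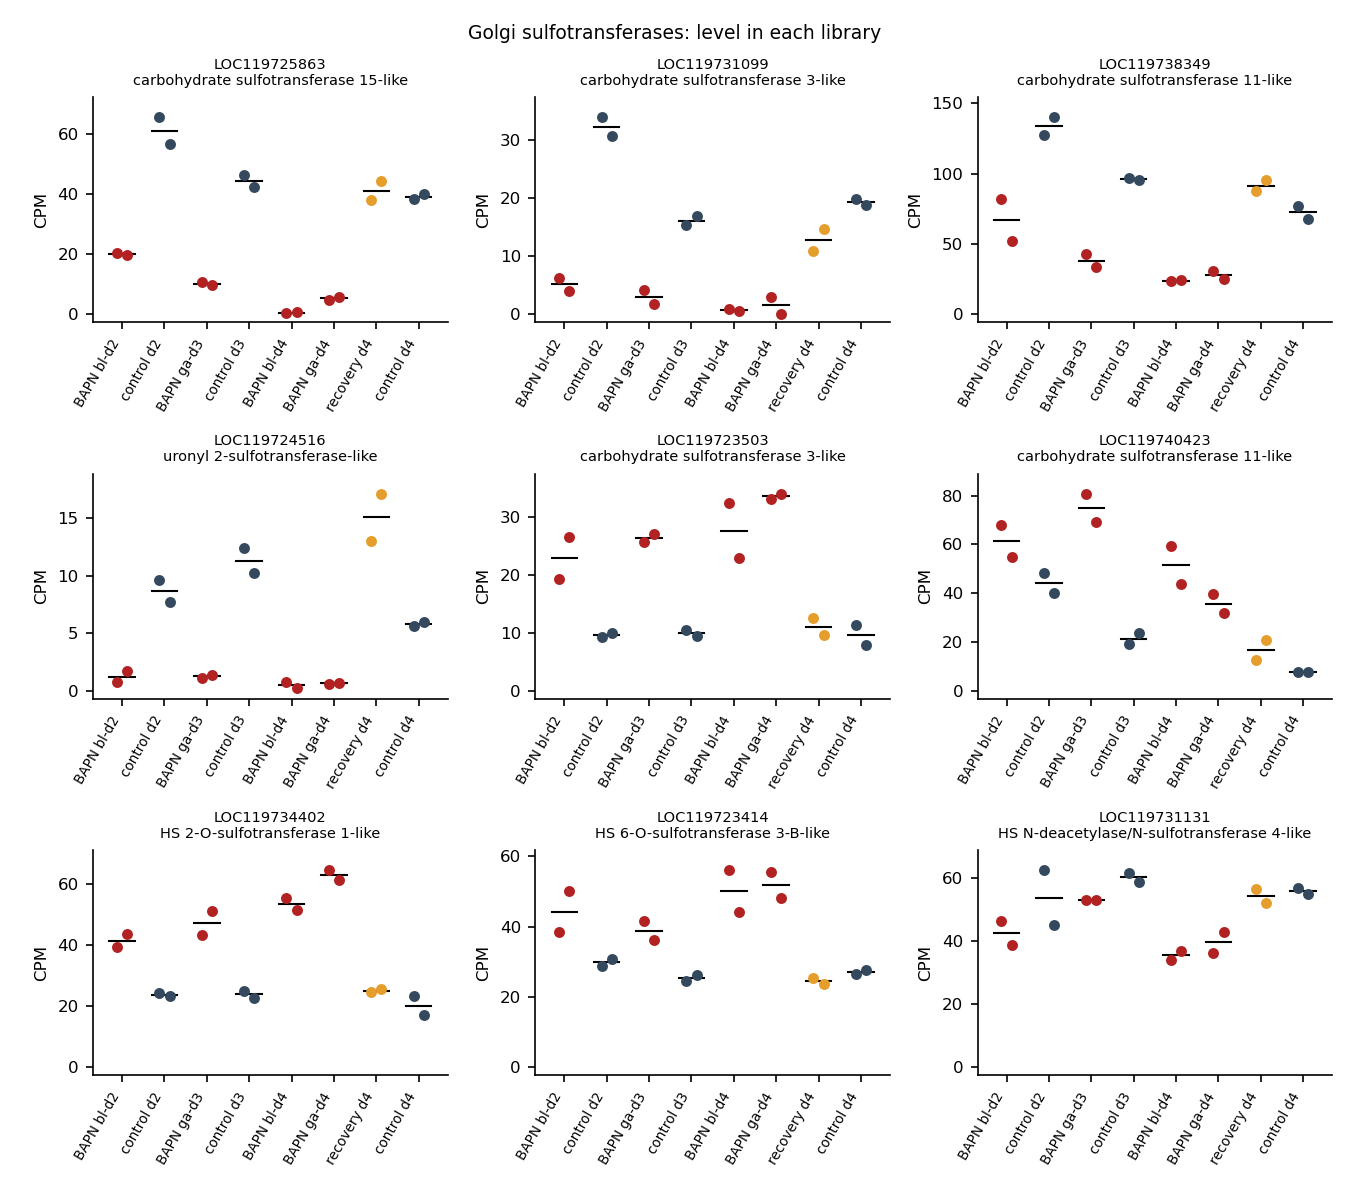
Levels of 9 Golgi sulfotransferases in CPM on a linear axis, 1 point per library, with BAPN groups in red, recovery in orange and controls dark. The letters bl mark BAPN from hatched blastula, ga BAPN from gastrula, and d the day. LOC119725863, LOC119731099, LOC119738349 and LOC119724516 are low in BAPN, LOC119723503, LOC119740423, LOC119734402 and LOC119723414 are high in it, and LOC119731131 is only slightly lower in it.

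The enzymes named after CHST9, CHST11, CHST13 and CHST14, which sulfate chondroitin or dermatan at carbon 4 of galactosamine, were divided. Of 20 tested members 3 rose and 7 fell in the mean effect, with a median log2 change of -0.12. Among all genes, 28.1% rose and 30.1% fell in that comparison. The share of falls in this group was thus near that of all genes, and the share of rises was smaller. LOC119732515 (carbohydrate sulfotransferase 11-like) had 2.93 and 1.5 CPM with BAPN from blastula to day 4, 4.17 and 1.33 CPM with BAPN from gastrula and 11.7 and 16.4 CPM in recovery, against 22.6 and 26.5 CPM in day 4 controls (mean log2 change -3.13 ± 0.38, adjusted p = 3.3e-07). LOC119731642 (11-like) had 4.6 and 3.95 CPM after BAPN from blastula to day 2, against 44.8 and 50.6 CPM in controls, and 4.64 and 10.9 CPM after BAPN from blastula to day 4, against 25.1 and 24.9 CPM; its mean log2 change was -2.32 ± 0.21 (adjusted p = 4.7e-09). These genes fell in all 4 windows.

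LOC119738349 (11-like) did so too, from a higher level. It had 82.0 and 52.2 CPM after BAPN from blastula to day 2, against 127 and 140 CPM in controls, and 42.6 and 33.9 CPM after BAPN from gastrula to day 3, against 97.1 and 95.3 CPM. On day 4 the level was 23.8 and 24.1 CPM with BAPN from blastula, 30.9 and 25.2 CPM with BAPN from gastrula and 87.5 and 95.4 CPM in recovery, against 77.3 and 67.6 CPM in controls. The mean log2 change was -1.31 ± 0.11 (adjusted p = 5.5e-10), and the recovery libraries lay above both controls.

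LOC119740423, another 11-like gene, at 4811876 to 4820207 on the minus strand of scaffold NW_024037072.1, did the opposite. It had 68.1 and 55.0 CPM after BAPN from blastula to day 2, against 48.1 and 40.2 CPM in controls, and 80.8 and 69.2 CPM after BAPN from gastrula to day 3, against 19.1 and 23.8 CPM. Its day 4 levels were 59.5 and 44.0 CPM with BAPN from blastula, 39.6 and 31.9 CPM with BAPN from gastrula and 12.8 and 20.7 CPM in recovery, against 7.86 and 7.8 CPM in controls. In untreated embryos the gene fell by 1.04 ± 0.22 at day 3 against day 2 and by 1.45 ± 0.24 at day 4 against day 3 on the log2 scale (adjusted p = 0.0024 and 0.00021), whereas the blastula-start libraries in BAPN at day 4 lay within 44.0 to 59.5 CPM, near their day 2 level. Its mean log2 change was 1.67 ± 0.13 (adjusted p = 3.5e-10), and the day 4 effect was larger than the day 2 effect by 2.24 ± 0.32 (adjusted p = 2.2e-05). Recovered embryos stayed above the controls (1.09 ± 0.24, adjusted p = 0.003).

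The 4-O member with the highest level per kilobase in every group, LOC119731641 (11-like), had 235 and 195 CPM after BAPN from blastula to day 2, against 302 and 344 CPM in controls, and 155 and 123 CPM after BAPN from gastrula to day 3, against 175 and 162 CPM. The day 4 libraries had 113 and 145 CPM with BAPN from blastula and 111 and 126 CPM with BAPN from gastrula, against 114 and 121 CPM in controls. Below both controls in the earlier windows and overlapping them at day 4, it had a mean log2 change of -0.24 ± 0.09 (adjusted p = 0.025). In recovery it had 154 and 203 CPM, above the day 4 controls (0.6 ± 0.16, adjusted p = 0.0096). LOC119728474 (14-like; in mammals CHST14 makes the dermatan sulfate of connective tissue) had 117 and 105 CPM with BAPN from blastula to day 4, against 53.7 and 50.5 CPM in controls, but 64.8 and 50.1 CPM after BAPN from gastrula to day 3, against 67.8 and 67.5 CPM; its mean log2 change was 0.39 ± 0.1 (adjusted p = 0.0018).

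The effect on several 4-O enzymes differed between the day 2 and day 4 windows of the blastula start, which differ in embryo age as well as in length of exposure. Of 20 tested members, 2 rose and 9 fell in the blastula-to-day-2 window, against 21.8% and 19.7% of all genes, and 7 rose and 3 fell in the blastula-to-day-4 window, against 24.4% and 27.3%. In 8 of them the day 4 effect was higher than the day 2 effect, against 12.1% of all genes. LOC119719532 (14-like) had 18.5 and 14.7 CPM after BAPN to day 2, against 32.2 and 28.4 CPM in controls, and 17.2 and 14.1 CPM after BAPN to day 4, against 7.13 and 5.92 CPM; its log2 changes were -0.87 ± 0.28 and 1.26 ± 0.29, which differ by 2.13 ± 0.4 (adjusted p = 0.00042). LOC119727518 (11-like) had 30.2 and 23.8 CPM, against 41.9 and 43.4 CPM, at day 2 and 32.7 and 48.1 CPM, against 22.9 and 24.5 CPM, at day 4. In both genes the controls were lower at day 4 than at day 2, whereas the treated libraries lay at a similar or higher level. These were the 2 members called higher in one window and lower in another.

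The other tested 4-O members moved less or were called in fewer windows. LOC119724753 (-0.59), LOC119725363 (-0.42) and LOC119741675 (-0.72) fell in the mean effect. LOC119724752 had 41.9 and 59.5 CPM with BAPN from blastula to day 4, against 31.5 and 40.2 CPM in controls, and LOC119725612 had 64.5 and 79.3 CPM, against 41.1 and 43.1 CPM; both were called higher in that window and not in the mean effect. LOC119744981 (11-like) was almost without reads in controls: it was at least 7.03-fold higher after BAPN from blastula to day 2 and at least 7.83-fold higher after BAPN from gastrula to day 3, and it had 6.05 and 3.01 CPM after BAPN from blastula to day 4, against 0.41 and 0 CPM (adjusted p = 0.00016 for the mean effect). LOC119724922, LOC119731185, LOC119731293, LOC119740424 and LOC119741674 were not called in the mean effect.

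Among the heparan sulfate enzymes both directions were seen. Heparan sulfate is first N-sulfated, then sulfated at carbon 2 of the uronic acid and carbons 6 and 3 of glucosamine; the N-, 2-O and 6-O steps each had 1 member here. LOC119731131, the N-deacetylase and N-sulfotransferase 4-like gene, fell slightly: it had 46.2 and 38.6 CPM, against 62.4 and 45.0 CPM, in the blastula-to-day-2 window, 53.1 and 53.1 CPM, against 61.4 and 58.8 CPM, in the gastrula-to-day-3 window and 34.1 and 36.9 CPM after BAPN from blastula to day 4, against 56.9 and 55.0 CPM (mean log2 change -0.39 ± 0.1, adjusted p = 0.0016). In recovery it had 56.5 and 51.9 CPM, near the 56.9 and 55.0 CPM of the controls.

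LOC119734402, the 2-O-sulfotransferase 1-like gene, at 5802647 to 5818903 on the minus strand of scaffold NW_024037066.1, rose in all 4 windows. It had 39.4 and 43.7 CPM, against 24.4 and 23.4 CPM, at day 2 and 43.5 and 51.3 CPM, against 25.1 and 22.9 CPM, at day 3. By day 4 it had 55.7 and 51.6 CPM with BAPN from blastula, 64.7 and 61.5 CPM with BAPN from gastrula and 24.6 and 25.7 CPM in recovery, against 23.3 and 17.2 CPM in controls. The BAPN and control levels did not overlap, and the mean log2 change was 1.06 ± 0.1 (adjusted p = 1e-08); recovery differed from controls by 0.31 ± 0.18 (adjusted p = 0.3).

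LOC119723414, the 6-O-sulfotransferase 3-B-like gene, at 2320982 to 2324216 on the plus strand of scaffold NW_024037055.1, rose in all 4 windows as well. It had 38.4 and 50.2 CPM, against 28.9 and 30.8 CPM, at day 2 and 41.5 and 36.2 CPM, against 24.5 and 26.3 CPM, at day 3. In the day 4 libraries it had 56.1 and 44.1 CPM with BAPN from blastula, 55.6 and 48.1 CPM with BAPN from gastrula and 25.3 and 23.6 CPM in recovery, against 26.6 and 27.6 CPM in controls. The mean log2 change was 0.69 ± 0.11 (adjusted p = 8.7e-06), and recovered embryos lay slightly below the controls.

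The 3-O step, a rare late modification that in mammals creates the antithrombin-binding site, had 11 tested members, of which 4 (36.4%) fell, near the 30.1% of all genes, and none rose (median log2 change -0.65). LOC119737501 (6-like) had 24.4 and 30.3 CPM after BAPN from blastula to day 4, against 33.7 and 35.8 CPM in controls, and a mean log2 change of -0.57 ± 0.1 (adjusted p = 4.6e-05). LOC119724682 (1-like, -1.12 ± 0.24), LOC119725770 (1-like, -1.21 ± 0.24) and LOC119737502 (6-like, -0.8 ± 0.21) were the other falls; the models of LOC119737501 and LOC119737502 overlap on the same strand, so their reads may not be separable. LOC119729131 (-0.06 ± 0.14), LOC119734924 (0.32 ± 0.16, adjusted p = 0.095), LOC119722629, LOC119724680, LOC119724681, LOC119737486 and LOC119737803 were not called. Summed over the 11 genes, the level was 102 and 93.4 CPM after BAPN from blastula to day 4, 96.0 and 93.2 CPM with BAPN from gastrula and 121 and 135 CPM in recovery, against 125 and 119 CPM in day 4 controls.

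Uronyl 2-sulfotransferase acts at carbon 2 of uronic acids in chondroitin and dermatan sulfate in mammals. Of its 3 members 1 fell in the mean effect (33.3%, near the 30.1% of all genes). LOC119724516 had 0.767 and 1.72 CPM, against 9.62 and 7.72 CPM, at day 2 and 1.16 and 1.42 CPM, against 12.4 and 10.2 CPM, at day 3. On day 4 the level was 0.807 and 0.282 CPM with BAPN from blastula, 0.635 and 0.666 CPM with BAPN from gastrula and 13 and 17.1 CPM in recovery, against 5.65 and 6.0 CPM in controls. It was lowest in BAPN and highest in recovery, with a mean log2 change of -3.12 ± 0.3 (adjusted p = 9e-09). The rise in recovery over controls, 1.37 ± 0.44 (adjusted p = 0.037), was lost when either library of recovery, of day 4 controls or of day 3 controls was left out (adjusted p = 0.064 to 0.28), while the rise over embryos kept in BAPN was 4.78 ± 0.56. LOC119730632 (0.07 ± 0.16, adjusted p = 0.73) and LOC119735382 (-0.8 ± 0.85) were not called.

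Galactose 3-O enzymes include galactosylceramide sulfotransferase, which makes the membrane lipid sulfatide in vertebrates. Of 9 tested members 3 rose and 4 fell in the mean effect, or 33.3% and 44.4%, against 28.1% and 30.1% of all genes. LOC119735019 (galactosylceramide sulfotransferase-like) had 0.341 and 0.202 CPM, against 4.47 and 5.08 CPM, at day 2 and 1.16 and 0.418 CPM, against 4.81 and 4.43 CPM, at day 3 (mean log2 change -2.82 ± 0.52, adjusted p = 7.2e-05). LOC119736158, of the same name, had 30.9 and 34.4 CPM after BAPN from blastula to day 4, against 15.3 and 14.9 CPM in controls, with a mean log2 change of 0.72 ± 0.12 (adjusted p = 1.5e-05). LOC119722909 (0.34 ± 0.11, adjusted p = 0.014) and LOC119741214 (0.35 ± 0.11, adjusted p = 0.012) rose less. LOC119740189 (galactose-3-O-sulfotransferase 2-like) had no read after BAPN from blastula to day 2 or to day 4, which makes it at least 9.55-fold and at least 27.0-fold lower than the controls of those days. Its recovery libraries had 2.55 and 2.11 CPM, against 3.77 and 4.12 CPM in day 4 controls.

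Both protein-tyrosine sulfotransferases rose in the mean effect, one of them modestly. LOC119730317 (1-like) had 9.38 and 8.09 CPM after BAPN from blastula to day 4 and 2.1 and 1.49 CPM in recovery, against 0.328 and 0.772 CPM in controls, but only 3.96 and 0.836 CPM after BAPN from gastrula to day 3, against 1.4 and 0.805 CPM. Its mean log2 change was 1.93 ± 0.4 (adjusted p = 0.00028). LOC119730381 had 40.8 and 39.6 CPM after BAPN from blastula to day 4 and 36.3 and 40.1 CPM in recovery, against 30.8 and 27.0 CPM in controls; its mean log2 change of 0.29 ± 0.1 (adjusted p = 0.018) lost its call under 9 of the alternative settings, among them the fit with pairs (0.25, adjusted p = 0.063). In neither gene did all 6 treated libraries lie above the controls of their day.

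Members were also grouped by the protein domain that the file gives, beside 28.1% of all genes rising and 30.1% falling in the mean effect. Members with domain PF00685 fell in 26 and rose in 3 of 40 tested cytosolic genes and fell in 15 and rose in 1 of 25 tested Golgi genes, with a median log2 change of -1.03 in these Golgi genes. Those with PF03567 rose in 5 and fell in 7 of 24, with a median of 0.03. This domain is that of the 4-O enzymes, of the uronyl genes LOC119730632 and LOC119735382 and of the heparan 2-O and 6-O genes. The heparan genes, LOC119734402 and LOC119723414, are among the rises. Those with PF06990 rose in 3 and fell in 4 of 9, with a median of -0.01. The difference between domains was not tested.

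In the blastula-to-day-2 window 9 members rose and 40 fell, against 21.8% and 19.7% of all genes; with each treated library paired with the control named for it, 5 rose. In the gastrula-to-day-3 window 8 rose and 24 fell, against 17.1% and 15.1%, or 6 and 36 when scaled by total counts alone. In the blastula-to-day-4 window 17 rose and 32 fell, against 24.4% and 27.3%, and in the gastrula-to-day-4 window 10 rose and 31 fell, against 21.9% and 24.2%. Over the 4 windows, 17 members were called higher at least once and never lower, 52 lower at least once and never higher, 2 both ways and 34 not at all, or 16.2%, 49.5%, 1.9% and 32.4% of the members, against 30.6%, 34.1%, 3.96% and 31.3% of all genes tested. Higher in all 4 were LOC119730908, LOC119723503, LOC119734402 and LOC119723414, 3.81% of the members, against 11.2% of all genes. Lower in all 4 were 14 members, 9 Golgi and 5 cytosolic, 13.3% of the members, against 8.25% of all genes. The day 4 windows share their controls, and their values are therefore given side by side and not as support for each other.

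The count of the day 2 falls was 25 without the 0.8 mM library of the blastula-to-day-2 group, and that of the day 3 falls was 15 without either treated library or without the second control of that day. No member was called for dose: at 1.2 against 0.8 mM, over the 10 treated libraries, 0 of 105 members were called by edgeR, against 0.0228% of all genes higher and 0.0% lower, and 0 by DESeq2, which called 36 genes higher and 19 lower. At an unadjusted p under 0.05, edgeR and DESeq2 each held 9 members (8.57%), against 7.02% of all genes in edgeR and 6.44% in DESeq2. The smallest of these p-values belonged to LOC119740423, higher at 1.2 mM by 0.38 ± 0.11 on the log2 scale (adjusted p = 0.35).

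Between days 2 and 4 of the blastula start, the effect of BAPN on 11 members shifted upwards and on 6 downwards, against 12.1% and 15.4% of all genes; with the pairs that the labels name, 3 shifted downwards. Besides the genes described above, LOC119734849 (sulfotransferase 1A3-like, after a dopamine-conjugating enzyme of humans) had 0 and 0.658 CPM after BAPN to day 4, against 15.1 and 12.4 CPM in controls, but 0.852 and 1.32 CPM after BAPN to day 2, against 1.6 and 2.64 CPM. The difference of the effects was -4.34 ± 1.15 (adjusted p = 0.0068). LOC119735635 (1C2-like) went the other way: it had 1.96 and 3.44 CPM at day 2, against 11.7 and 20.3 CPM, and 1.31 and 2.82 CPM at day 4, against 1.72 and 2.66 CPM, a difference of 2.5 ± 0.75 (adjusted p = 0.016). In LOC119734849 the control level was higher at day 4 than at day 2, and in LOC119735635 it was lower.

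In untreated embryos, few members were called from day to day in the fit over all groups. Fits of the compared days alone called more falls in both steps and more rises at day 4 against day 3. Those counts are given in the section on processing. At day 3 against day 2, 2 rose (LOC119732515 and LOC119730618) and 8 fell, against 9.86% and 6.55% of all genes. At day 4 against day 3, 3 rose (LOC119735361, LOC119745949 and LOC119730618) and 4 fell, against 7.95% and 5.79%; scaled by total counts alone, 1 rose and 10 fell. The rises were those of genes that were low in BAPN or, for LOC119745949 (13-like), not called. LOC119730618 gained 0.48 ± 0.13 and then 0.46 ± 0.13 on the log2 scale (adjusted p = 0.013 and 0.018), and LOC119735361 gained 1.85 ± 0.53 at day 4 (adjusted p = 0.02).

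When BAPN was removed at day 2, few members differed from controls past the test at day 4 in the fit over all groups. A fit of recovery and day 4 controls alone called more members in both directions, with counts in the section on processing. Against day 4 controls, 5 members were higher and 4 lower in recovery, against 7.27% and 8.65% of all genes, and the median log2 difference was 0.02. The higher ones were LOC119724516, LOC119740423, LOC119731641 and 2 neighbouring galactosylceramide sulfotransferase-like genes, LOC119741214 (0.64, adjusted p = 0.029) and LOC119740530 (0.69 ± 0.22, adjusted p = 0.031). The lower ones were the cytosolic LOC119735361, LOC119735524 and LOC119730618 and the 13-like LOC119745949 (-0.79 ± 0.19, adjusted p = 0.0052). Without recovery replicate 2 the count of higher members was 0, without recovery replicate 1 it was 3, and without either day 4 control it was 2; the count of lower members was 1 without recovery replicate 1. Compared with embryos kept in BAPN, recovery had 36 higher and 14 lower members, against 25.3% and 23.3% of all genes. Scaled by total counts alone, recovery had 8 higher and 4 lower members than controls, and 45 higher and 7 lower than embryos kept in BAPN.

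Of the 32 members that were lower after BAPN from blastula to day 4, 28 were not called in recovery against the same controls, 3 were still lower and 1 was higher. That is 87.5%, 9.38% and 3.12% of them, against 76.7%, 18.7% and 4.56% of the 4779 genes of the whole table that were lower in that window. Of the 17 that were higher, 15 (88.2%) were not called in recovery and 2 (11.8%) were still higher, against 75.4% and 16.3% of all genes higher in that window. Both comparisons share the day 4 controls. The cytosolic median in recovery was -0.59, and that of the Golgi class 0.21; the 3 members still lower are all cytosolic. The difference between the classes was not tested. The recovered embryos had BAPN for a shorter time than those kept in it, so removal and shorter exposure cannot be told apart in this comparison.

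**Figure D5:**
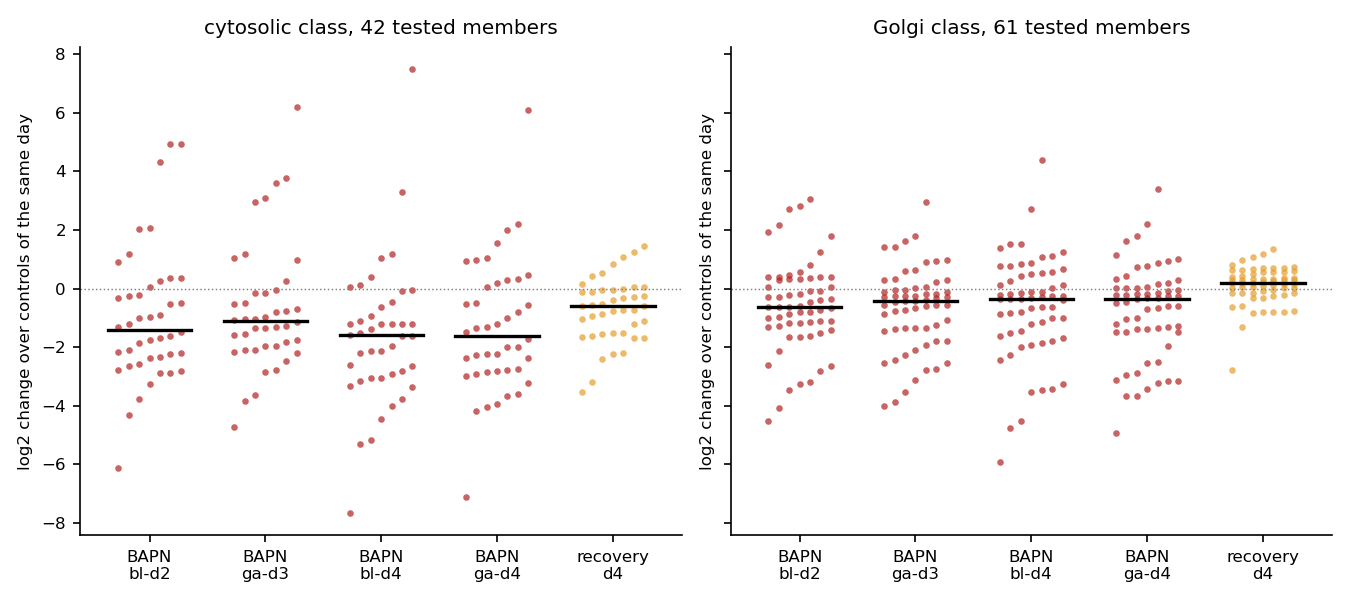
Each point is 1 tested member, and the horizontal positions are the 4 BAPN windows and recovery, each against controls of its day, for cytosolic members and Golgi members, with bl for BAPN from hatched blastula, ga for BAPN from gastrula and d for the day; the vertical axis is the log2 change, with groups without a read held at the floor of 3 counts, and the bar is the median. The BAPN columns lie mostly below 0 in the cytosolic class, LOC119730908 stands far above the others in the later windows, and in recovery the Golgi points gather near 0 around a median of 0.21 while several cytosolic points stay below.

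The genes that feed and use these enzymes were read from the same fit, by words in their names. Of 6 tested genes for the supply and clearance of PAPS, the sulfate donor that all the members use, 4 fell and none rose, beside 30.1% of all genes falling and 28.1% rising; the same shares apply to the lists that follow. Both PAPS synthase genes were among them, LOC119731152 (-1.3 ± 0.08, adjusted p = 6e-12) and LOC119731284 (-1.34 ± 0.09, adjusted p = 4.1e-11), and in recovery their differences from controls were -0.11 and -0.23, neither called. The others were LOC119718746, a nucleotidase that clears the spent donor (-0.71 ± 0.11), which was still lower in recovery (-0.58 ± 0.19, adjusted p = 0.042), and LOC119721420 (inositol monophosphatase 3-like, -0.23 ± 0.09), which was not called in recovery (0.36 ± 0.16, adjusted p = 0.15), while the PAPS transporter genes LOC119728853 and LOC119736429 were not called.

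The genes that make the chains to be sulfated were mostly not called in the mean effect: of 16 tested, 1 rose, LOC119739734 (beta-1,4-galactosyltransferase 7-like, 0.83 ± 0.1), and 2 fell, LOC119745342 (chondroitin sulfate synthase 1-like, -1.04 ± 0.18) and LOC119738593 (dermatan-sulfate epimerase-like, -0.35 ± 0.12). The proteins that carry them mostly rose, 6 of 8, among them LOC119723421 (glypican-6-like, 1.54 ± 0.08) and LOC119724564 (syndecan-3-like, 1.3 ± 0.06), and 1 fell, LOC119744428, named after the basement membrane heparan sulfate proteoglycan (-0.4 ± 0.08). Of 33 tested sulfatases, which remove sulfate, 6 rose and 10 fell, and of 2 tested heparanase-like genes, after an enzyme that cuts the heparan sulfate chain, 1 rose and 1 fell. The sulfatase rises include LOC119724836, the Sulf-1-like gene, after an extracellular enzyme that in vertebrates trims 6-O-sulfate from heparan sulfate (2.24 ± 0.07, adjusted p = 1.3e-16), and LOC119732202 (N-acetylglucosamine-6-sulfatase-like, 2.73 ± 0.07). All 3 tested genes named sulfate anion transporter-like rose, LOC119722695 (1.19 ± 0.24), LOC119734911 (1.86 ± 0.38) and LOC119737935 (2.62 ± 0.12), and LOC119737354 (solute carrier family 26 member 6-like) was not called. The list also drew in 2 genes named after solute carrier family 13 member 5, a citrate carrier in mammals, and both fell, with log2 changes of -2.94 ± 0.16 for LOC119727693 and -5.22 ± 0.93 for LOC119728823.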

How the data were processed

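RNA of whole sea star embryos was measured in 16 libraries, 8 groups of 2. The deposited file holds raw read counts per gene; per the labels' protocols, RNA was extracted with trizol and polyA libraries were made, while aligner, counter and build are not given in the sources at hand. For the 27818 genes, scaffold names, starts and ends match the RefSeq table of assembly Pmin_3.0. Groups were taken from the labels. Members, classes, pathway lists and markers were chosen by words in the product names, with earlier results of these data known. Genes with low counts (edgeR's filterByExpr, minimum count 10, minimum total 15) were removed, which kept 17519 and left out 10299. One edgeR 4.0.16 quasi-likelihood model (R 4.3.3, TMM scaling, robust, 8 residual degrees of freedom) covered all groups, and p-values were adjusted by Benjamini-Hochberg over all genes kept and called under 0.05. Standard errors are the log2 change divided by the root of F. Dose was tested in the 10 treated libraries beside a term for the group. Groups without a read were held at a floor of 3 counts over the group, which covers counting error only. Named with values were, in each class, the 5 largest rises and 5 largest falls called in the mean effect and, in the other comparisons, the 3 largest of each (mean log2 CPM of at least 1), the members of highest level, and every tested heparan, uronyl, tyrosine and 4-O enzyme; other members named were chosen after their values were seen. The labels name a control for each treated library of 3 groups (at day 4 replicate 2 for replicate 1 and the reverse), and these 6 pairs, not equal numbers, made the replicate block; the deviations of paired libraries from their group means had correlations of 0.01, -0.01 and 0.02 at days 2, 3 and 4. Alternatives were DESeq2 1.42.0, total counts as scale, no filter, ribosomal RNA genes left out, fits of the compared groups alone, a replicate block, each library left out and, added after seeing the data, a minimum mean of 2 CPM. The fit was tested on simulated data.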

Additional observations from a re-analysis of the deposited data

Results flagged for a closer look

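Of 105 tested members, 17 had an effect of BAPN from hatched blastula that differed between day 4 and day 2 by the test of the difference itself in the edgeR fit (11 upwards, 6 downwards, against 12.1% and 15.4% of all genes). Values are the day 4 effect minus the day 2 effect on the log2 scale. The difference was -4.32 for LOC119725863 (carbohydrate sulfotransferase 15-like), whose fall was deeper at day 4, and -4.34 for LOC119734849 (sulfotransferase 1A3-like), which was called lower at day 4 (-5.31) but not at day 2 (-0.97). It was 2.54 for LOC119730908 (sulfotransferase 1A1-like), whose rise was larger at day 4. It was 3.27 for LOC119730317 (protein-tyrosine sulfotransferase 1-like), called higher at day 4 (3.97) but not at day 2 (0.7), and this call was lost without control day 4 replicate 1 (2.84, adjusted p = 0.089). It was 2.5 for LOC119735635 (sulfotransferase 1C2-like), called lower at day 2 (-2.57) but not at day 4 (-0.08). That call was lost without replicate 1 of BAPN from blastula to day 2 (2.14), control day 2 replicate 2 (2.09), replicate 2 of BAPN from blastula to day 4 (1.83) or control day 4 replicate 1 (2.28).

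In low or borderline members the call often did not last. The difference was -4.55 for LOC119735297 (sulfotransferase 1 family member D1-like, adjusted p = 0.042), lost in 11 alternatives with adjusted p-values from 0.061 to 0.16. It was -1.14 for LOC119735524 (sulfotransferase 1C2-like), lost in 10 alternatives with adjusted p-values from 0.051 to 0.3. LOC119731293 and LOC119745831 had groups without a read, so their fitted difference is not a size: the day 2 levels of treated and control libraries overlapped, and after BAPN from blastula to day 4 their levels were at least 2.28-fold and at least 9.51-fold lower. The call of LOC119731293 was lost in 15 alternatives, and that of LOC119745831 with the replicate block and without replicate 2 of BAPN from blastula to day 2.

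Among the 4-O enzymes the differences were 2.24 for LOC119740423, 2.13 for LOC119719532, 1.43 for LOC119727518 and 1.08 for LOC119725612, calls kept in every alternative fitted. The difference was 1.79 for LOC119731642, lost without replicate 2 of BAPN from blastula to day 4 (1.03, adjusted p = 0.13). It was 0.98 for LOC119724753, lost in 5 alternatives (0.87 to 1.04). It was 0.77 for LOC119728474, lost without replicate 2 of BAPN from blastula to day 2 (0.59) or control day 4 replicate 2 (0.78). It was 0.72 for LOC119731641, lost without replicate 2 of BAPN from blastula to day 2 (0.61), control day 2 replicate 2 (0.67) or replicate 2 of BAPN from blastula to day 4 (0.52).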

How the results depend on the processing

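All 55 members called lower in the mean effect were also called lower with total counts as scale, without the filter, in DESeq2 and with a replicate block. With total counts, recovery against controls had 8 higher members, recovery against kept BAPN 7 lower, and control day 4 against day 3 had 1 higher and 10 lower; without the filter control day 3 against day 2 had 5 higher. Fitted on the groups compared alone, the counts were 5 higher for blastula to day 2, 43 lower for gastrula to day 3, 14 higher and 12 lower for recovery against controls, 13 lower for control day 3 against day 2, and 13 higher and 16 lower for control day 4 against day 3. The shares over all genes in those fits of the compared groups alone are not given here, so their counts describe the members only. The replicate block gave 5 higher members for blastula to day 2 and 3 lower for the day 4 effect minus the day 2 effect. The block joined each treated library with the control that the labels name for it, and among single members it ended the call of LOC119730381 in the mean effect and of the day 4 minus day 2 differences of LOC119724753, LOC119731293, LOC119735297, LOC119735524 and LOC119745831; it changed no other call of a single member. The cause of these changes was not tested.

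Leaving out 1 library at a time, where the lone sample of a group is assumed to vary like the others, gave 11 to 15 higher and 52 to 58 lower for the mean effect, 5 to 9 and 25 to 45 for blastula to day 2, 4 to 8 and 15 to 27 for gastrula to day 3, 13 to 18 and 25 to 33 for blastula to day 4, and 7 to 12 and 24 to 33 for gastrula to day 4. It gave 0 to 7 higher and 1 to 4 lower for recovery against controls, 24 to 36 and 9 to 14 for recovery against kept BAPN, 0 to 4 and 3 to 11 for control day 3 against day 2, 0 to 4 and 1 to 5 for control day 4 against day 3, and 9 to 12 and 3 to 9 for the day 4 effect minus the day 2 effect. Uncalled mean effects near 0 changed sign: with total counts LOC119725612 (-0.05), LOC119730632 (-0.15) and LOC119745949 (-0.05), without the filter LOC119727518 (0.01), and, over the fits with 1 library left out, LOC119737803 (-0.34 to 0.25), LOC119729131 (-0.15 to 0.06), LOC119727518 (-0.1 to 0.1), LOC119730632 (-0.03 to 0.17) and LOC119731293 (-2.32 to 0.04).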

Other observations

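Beside the 148 named members, 17 genes carry one of the same 4 sulfotransferase domains under other names, 15 of them uncharacterized or without a product name. LOC119727207 (WSC domain-containing protein 2-like) had 20.9 and 24.0 CPM after BAPN from blastula to day 2, against 75.9 and 81.0 CPM in controls, and a mean log2 change of -1.67 ± 0.12 (edgeR adjusted p = 3.7e-11). LOC119734979 fell (-0.85 ± 0.12), with 42.8 and 69.2 CPM at day 2, against 91.2 and 94.2 CPM. LOC119722913, with a galactose-3-O-sulfotransferase domain, rose (0.44 ± 0.1) and had 123 and 90.3 CPM at day 2, against 43.2 and 59.1 CPM, while its effect at day 4 was lower by -1.15 ± 0.25 than at day 2 (adjusted p = 0.0016). LOC119724679 (0.67 ± 0.12), LOC119725614 (0.46 ± 0.11) and, at low levels, LOC119724741 also rose. Further falls were those of LOC119722473 (-0.72 ± 0.19), LOC119734732 (-0.82 ± 0.23) and LOC119738593 (-0.35 ± 0.12). LOC119724907, LOC119728124 and LOC119740096 fell too, at low levels. Falls thus outnumbered rises among these genes, beside 28.1% of all genes rising and 30.1% falling in the mean effect.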
